A study of Macaca mulatta with 11 samples.

Results

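EGR2, NR4A1, KLF4, KLF6 and ZFP36 are 5 immediate early genes, 4 coding for transcription factors and 1 for an mRNA decay factor, out of 14132 genes represented on an array of cumulus cell RNA from rhesus monkeys. They were chosen by gene symbol after their levels in these 11 arrays were known, and they cover 13 probe sets, all of which are described. The levels in the 3 groups, and every difference between them, are what the choice rested on. They are therefore given as descriptions, with standard errors and without a test.

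Immediate early genes are transcribed within minutes of a stimulus from factors that are already present, such as SRF with its ETS partners and CREB, and their mRNAs are usually short-lived. EGR2, KLF4 and KLF6 are zinc finger transcription factors, NR4A1 (Nur77) is an orphan nuclear receptor, and ZFP36 (tristetraprolin) binds AU-rich elements in mRNA and recruits the deadenylation machinery. In the ovary, luteinizing hormone and its analogue human chorionic gonadotropin (hCG) act on follicle wall cells, whose EGF-like ligands then reach the cumulus cells around the oocyte and activate MAP kinase there. Early growth response and NR4A factors are known as targets of that surge.

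Cumulus cells are somatic and enclose the oocyte, and each sample filled 1 Affymetrix array. The 4 pre-maturation samples (PM) came from immature complexes of animals given follicle-stimulating hormone (FSH) and nothing further. The 3 in vitro matured samples (IVM) came from complexes of FSH-treated animals that were matured in culture, and the 4 in vivo matured samples (VVM) from complexes that matured in animals given FSH and then hCG. FSH treatment is common to all 3 groups. The labels used here give no age, culture time, number of pooled complexes or animal for any sample, so the standard errors and p-values measure the spread between these samples alone, which may be technical.

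Levels are log2 of the deposited RMA intensity, and a difference of 1 on this scale is 2-fold. Array medians lay between 5.34 and 5.36 in PM, between 5.45 and 5.53 in IVM and between 5.43 and 5.49 in VVM. Arrays of 1 group correlated with r from 0.974 to 0.987 across probe sets, which do not count as replicates. The median difference over all genes was 0.08 for IVM minus VVM, 0.12 for IVM minus PM and 0.04 for VVM minus PM. Of 15 granulosa and cumulus markers 13 were measured, and INHA, the inhibin alpha subunit, had a mean and SD of 13.84 ± 0.11 over the 4 PM arrays, 13.28 ± 0.26 over the 3 IVM arrays and 13.49 ± 0.09 over the 4 VVM arrays. Some of the other markers moved more and some less, and the median IVM minus PM difference of the 13 was -0.05. By limma at an adjusted p under 0.05, 8 of the 13 fell (61.5%) and 3 rose (23.1%) in VVM against PM. Of all genes 21.8% fell and 18.0% rose there. In IVM against PM 6 fell (46.2%) and 3 rose (23.1%), beside 20.9% and 25.0% of all genes. In IVM against VVM 5 rose (38.5%) and 1 fell (7.69%), beside 9.06% and 7.63% of all genes. The log2 of the summed level of the 13 markers ranged from 15.14 to 15.49 in PM, from 14.50 to 15.08 in IVM and from 14.38 to 14.77 in VVM. FOXL2 and FSHR, which define the lineage, were not analysed here. In bulk RNA, fewer cells of a type and less RNA per cell cannot be told apart.

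EGR2, a zinc finger factor of the early growth response family, had the second lowest IVM minus VVM difference of the 14132 genes. Its brighter probe set read 10.63, 9.07, 10.73 and 10.91 in PM 1 to PM 4, 7.02, 4.38 and 6.27 in IVM 1 to IVM 3, and 10.91, 11.41, 11.67 and 11.11 in VVM 1 to VVM 4. The IVM arrays lay below all others, by 3.88 from the lowest VVM array and by 2.05 from the lowest PM array, while PM and VVM met at 10.91. The difference was -5.38 ± 0.57 (SE, n = 3 and 4), a fold of 41.7, for IVM minus VVM. It was -4.45 ± 0.57, a fold of 21.8, for IVM minus PM and 0.94 ± 0.53 for VVM minus PM.

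The second probe set of EGR2 did not show this pattern. It lay between 5.09 and 6.0 on all 11 arrays, close to the array medians, with an IVM minus VVM difference of -0.35 ± 0.17 and overlapping groups. The 2 probe sets disagree, and the mean of both gives an IVM minus VVM difference of -2.87 in place of -5.38. IVM 2 was the lowest array of the brighter set and lay below its array's median, so the folds and rank of EGR2 are approximate. Without it the IVM minus VVM difference was -4.63.

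NR4A1, a nuclear receptor that needs no known ligand and whose amount sets its activity, was also lowest in IVM. Its brighter probe set read 11.94, 11.59, 11.50 and 12.26 in PM, 9.09, 8.90 and 9.29 in IVM, and 10.61, 11.62, 11.43 and 11.28 in VVM, in the order of the replicate numbers. The 3 IVM arrays lay 1.32 below the lowest VVM array and 2.21 below the lowest PM array, and PM and VVM overlapped. The differences were -2.14 ± 0.24 for IVM minus VVM, a fold of 4.40, -2.73 ± 0.24 for IVM minus PM, a fold of 6.61, and -0.59 ± 0.23 for VVM minus PM.

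The other probe set of NR4A1, which does not carry the suffix that marks possible cross-hybridization, had the same order of groups and larger differences. It read 10.81, 10.52, 10.36 and 11.13 in PM, 5.91, 5.20 and 6.57 in IVM, and 8.05, 10.13, 9.59 and 9.78 in VVM. Here all 3 groups were separate, with VVM between the others, and the differences were -3.50 ± 0.45 for IVM minus VVM, -4.81 ± 0.45 for IVM minus PM and -1.31 ± 0.42 for VVM minus PM. VVM 1 was the lowest VVM array in both probe sets. Among the 5 genes, NR4A1 was the one whose VVM mean lay below its PM mean.

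KLF4, a Krüppel-like factor that holds cells out of division in several tissues, varied more within groups. Its brighter probe set read 10.14, 9.66, 10.07 and 9.13 in PM, 8.31, 5.45 and 5.85 in IVM, and 9.62, 10.27, 11.38 and 8.68 in VVM. IVM lay below the others, but IVM 1 was only 0.37 below VVM 4, and the PM values fell inside the VVM range. The differences were -3.45 ± 0.70 for IVM minus VVM, -3.21 ± 0.70 for IVM minus PM and 0.24 ± 0.65 for VVM minus PM.

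Single arrays carried part of the KLF4 values, and IVM 2 again lay below its array's median. Without IVM 1 the IVM minus VVM difference was -4.34, without IVM 2 it was -2.90, and the VVM minus PM difference changed sign without VVM 3, to -0.23. The dimmer KLF4 probe set lay between 5.39 and 7.44, with overlapping groups and an IVM minus VVM difference of -0.89 ± 0.36. The mean of both probe sets gave -2.17.

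KLF6, a Krüppel-like factor induced by injury and serum, had 6 probe sets. The brightest read 12.39, 12.08, 12.47 and 12.42 in PM, 10.06, 9.47 and 9.14 in IVM, and 12.50, 12.61, 12.75 and 12.42 in VVM. IVM stood 2.36 below the lowest VVM array and 2.02 below the lowest PM array, while PM and VVM overlapped. The differences were -3.01 ± 0.19 for IVM minus VVM, a fold of 8.05, -2.78 ± 0.19 for IVM minus PM, a fold of 6.87, and 0.23 ± 0.18 for VVM minus PM.

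Of the 6 KLF6 probe sets, the 5 brightest had every IVM array below every PM and every VVM array. Their IVM minus VVM differences were, from the brightest to the dimmest, -3.01, -3.85, -2.34, -3.56 and -2.00, with standard errors from 0.17 to 0.36. The dimmest of the 6 lay between 5.03 and 6.22, near the array medians, and its IVM minus VVM difference was -0.34 ± 0.22. In 3 of the 6 the VVM arrays also lay above all PM arrays, by 0.28, 0.41 and 0.04, so the near-equality of PM and VVM in the brightest set does not hold across probe sets. The VVM minus PM differences of those 3 were 0.75 ± 0.27, 0.80 ± 0.15 and 0.96 ± 0.31.

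ZFP36, whose protein shortens the poly(A) tails of cytokine and immediate early mRNAs and so speeds their decay, followed another course. Its single probe set read 3.95, 4.30, 3.85 and 4.20 in PM, 7.01, 6.49 and 5.45 in IVM, and 7.96, 7.32, 9.70 and 8.53 in VVM. The 3 groups did not overlap: PM was lowest, IVM 1.15 above it and VVM 0.30 above IVM. ZFP36 differed by 4.30 ± 0.45 for VVM minus PM, by 2.24 ± 0.49 for IVM minus PM and by -2.06 ± 0.49 for IVM minus VVM. All PM values lay below the array medians, so the folds of 19.8 and 4.74 against PM can be no more than lower bounds. With the level of the hybridization controls in the fit, the IVM minus PM difference of ZFP36 was 0.33 in place of 2.24.

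**Figure D1:**
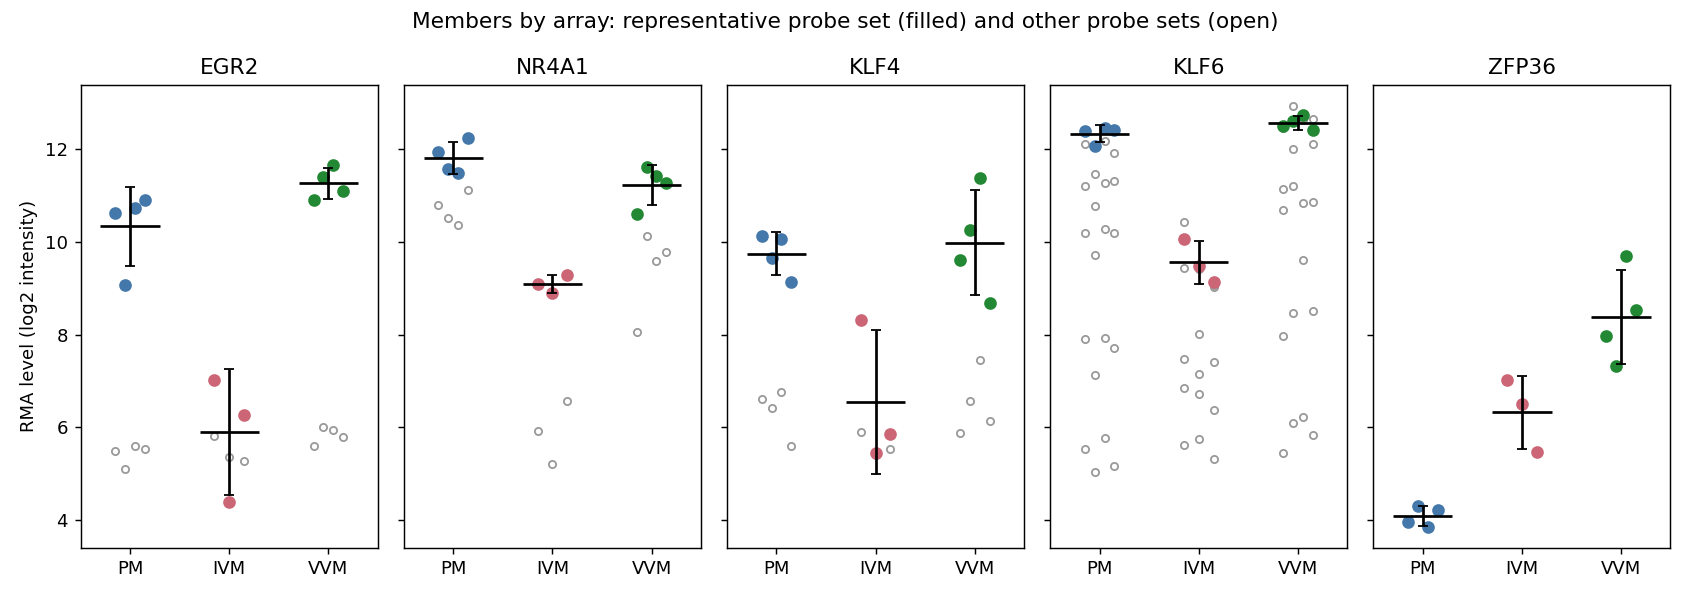
Log2 RMA level of the 5 genes in each of the 11 arrays, by group, with the mean and SD of the representative (brightest) probe set as bars and filled points, and all other probe sets as open points. In the filled points, the 3 IVM arrays lie below all PM and VVM arrays for EGR2, NR4A1, KLF4 and KLF6. ZFP36 is lowest in PM (3.85 to 4.30) and highest in VVM (7.32 to 9.70).

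**Figure D2:**
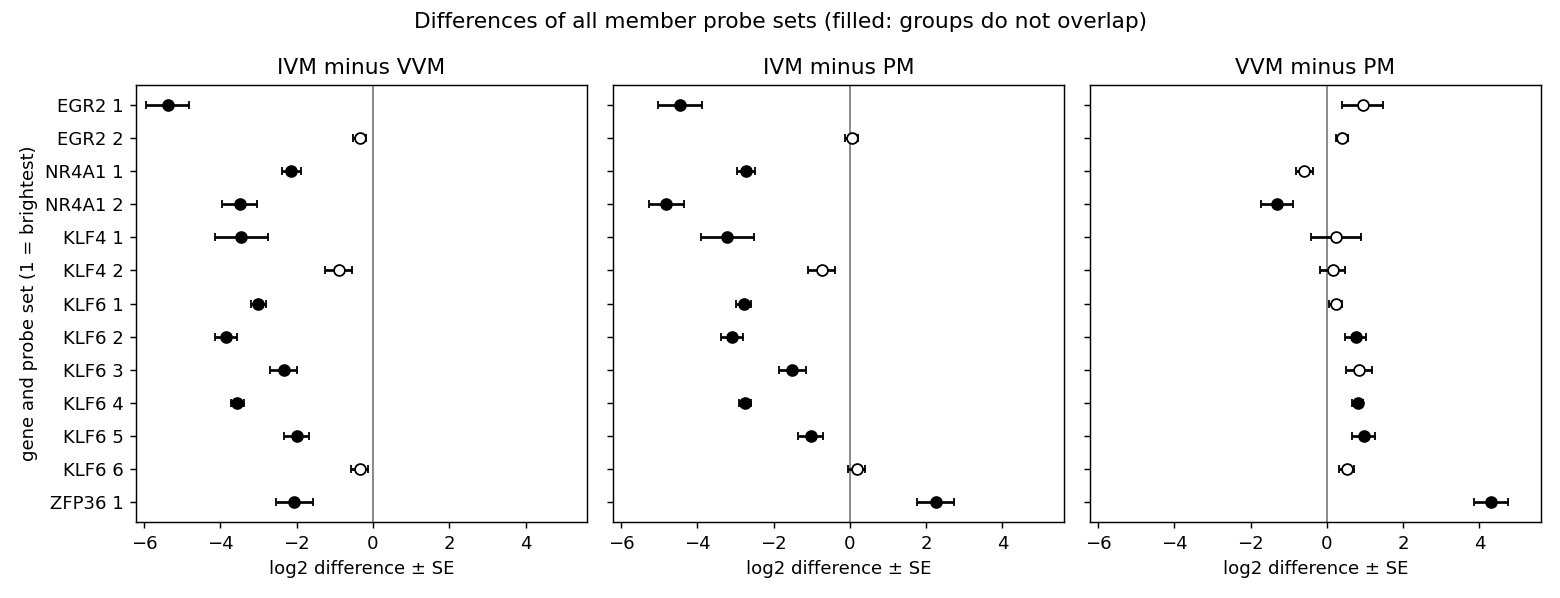
Log2 differences with their standard errors for all 13 probe sets in the 3 comparisons, numbered from the brightest probe set of each gene, filled where the groups do not overlap. All 13 differences are below 0 for IVM minus VVM, from -5.38 to -0.34, and the dim sets EGR2 2, KLF4 2 and KLF6 6 are those with overlapping groups there.

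The groups can be ordered for each gene by the brightest probe set. For EGR2, KLF4 and KLF6 the order of means was IVM, PM, VVM, and the neighbours PM and VVM overlapped. For NR4A1 it was IVM, VVM, PM, and VVM and PM overlapped. For ZFP36 it was PM, IVM, VVM, with no overlap between neighbours.

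By the brightest probe set, 5 of 5 genes had IVM arrays wholly below the VVM arrays, a state found in 11.1% of all genes. For IVM minus PM, 4 of 5 lay wholly below, against 21.0% of all genes, and ZFP36 lay wholly above, against 29.4%. For VVM minus PM none lay wholly below and ZFP36 lay wholly above, against 21.1% and 20.8% of all genes. EGR2, NR4A1, KLF4 and KLF6 had every IVM array below every PM and every VVM array, as had 844 genes, or 5.97%. Since these levels chose the genes, nothing is read from the counts.

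Across arrays, the 4 genes low in IVM did not move by equal amounts. The profiles of 2 genes were compared by the root mean square (RMS) difference of their log2 levels over the 11 arrays, each gene centred on its own mean, so that 0 means identical courses. The RMS difference was 0.54 between NR4A1 and KLF6, 0.78 between KLF4 and KLF6, 1.08 between NR4A1 and KLF4, 1.10 between EGR2 and KLF4, 1.15 between EGR2 and KLF6 and 1.45 between EGR2 and NR4A1. ZFP36 stood apart from all 4, at 2.26 to 2.82.

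Other genes came closer to some of these courses. Nearest to NR4A1 were PIM1, a serine/threonine kinase, at an RMS difference of 0.27, EIF4E3, a cap-binding translation factor, at 0.29 and RBM3, an RNA-binding protein induced by cold, at 0.30, where the median over all genes was 1.23. PIM1 had a mean and SD of 11.53 ± 0.51 over the 4 PM arrays, 8.55 ± 0.37 over the 3 IVM arrays and 10.60 ± 0.52 over the 4 VVM arrays. Nearest to KLF6 were ATAD2, a chromatin-associated ATPase, at 0.39, ADHFE1 at 0.42 and KAT6A, a histone acetyltransferase, at 0.46, against a median of 1.39.

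The nearest genes to KLF4 were PON2, a paraoxonase, at 0.54, the ephrin ligand EFNB2 at 0.60 and KLF6 at 0.78, against a median of 1.81. For EGR2 they were PYROXD1 at 0.61, PON2 at 0.96 and the adhesion molecule VCAM1 at 1.07, against a median of 2.40. For ZFP36 they were PCSK5, a proprotein convertase, at 0.56, TTYH2 at 0.56 and DENND1B at 0.59, against a median of 1.95. PCSK5 had a mean and SD of 6.43 ± 0.77 over the 4 PM arrays, 8.49 ± 0.32 over the 3 IVM arrays and 10.74 ± 0.56 over the 4 VVM arrays. All of these distances are over the same 11 arrays, which fall into 3 groups, and describe these arrays.

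Markers of leukocytes, which can also carry KLF4, KLF6 and ZFP36 mRNA, differed between the VVM arrays. Of 17 leukocyte markers 13 were measured. By limma at an adjusted p under 0.05, 8 rose (61.5%) and 1 fell (7.69%) in VVM against PM. Of all genes 18.0% rose and 21.8% fell there. The log2 of the summed level of the 13 markers ranged from 10.51 to 10.70 in PM, from 9.59 to 10.02 in IVM and from 9.67 to 12.56 in VVM. Averaged, the 4 markers LYZ, CD14, PTPRC and TYROBP stood at 5.41, 7.48, 8.70 and 5.36 in VVM 1 to VVM 4 and lay between 4.24 and 4.70 in PM and IVM. These 4 are a part of the 13 and moved more than the whole list. The mean of all 13 was 5.77, 7.08, 7.52 and 5.59 in VVM 1 to VVM 4. It lay between 5.31 and 5.47 in PM and between 5.39 and 5.49 in IVM. PTPRC, the pan-leukocyte marker, was at 3.49 to 4.23 in the PM and IVM arrays, below the array medians.

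VVM 3 had the highest leukocyte markers. In the brightest probe sets it was also the highest VVM array for EGR2, KLF4, KLF6 and ZFP36, and VVM 2 was the highest for NR4A1. Among the other probe sets of these genes, VVM 2 was the highest VVM array in that of EGR2 and in some of KLF6. When PM 1, VVM 2 and VVM 3 were all omitted, the IVM minus VVM differences were -5.11 for EGR2, -1.85 for NR4A1, -2.61 for KLF4, -2.90 for KLF6 and -1.93 for ZFP36. With the mean of the 4 leukocyte markers in the fit they were -4.91, -1.74, -2.00, -2.80 and -1.45 in the same order. That fit gave a KLF4 difference of -1.36 for VVM minus PM, in place of 0.24. The part of leukocyte RNA in these levels was not tested beyond these fits.

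The hybridization controls, bacterial transcripts spiked into each sample, moved with the groups as well. Their mean and SD were 10.09 ± 0.21 over the 4 PM arrays, 11.92 ± 0.40 over the 3 IVM arrays and 11.04 ± 0.43 over the 4 VVM arrays. The 3 prime minus 5 prime level of the actin and GAPDH control probe sets, a measure of RNA length after amplification, was 3.34 ± 0.11 in PM, 3.93 ± 0.38 in IVM and 3.70 ± 0.19 in VVM. The IVM minus PM differences of EGR2, NR4A1, KLF4, KLF6 and ZFP36 were -4.45, -2.73, -3.21, -2.78 and 2.24 without a covariate. With the hybridization controls in the fit they were -4.20, -3.09, -5.31, -3.42 and 0.33 in the same order. With the 3 prime to 5 prime level they were -5.37, -2.92, -5.32, -3.24 and 1.11. The VVM minus PM difference of KLF4 was -0.86 with the controls and -1.07 with the 3 prime to 5 prime level, in place of 0.24. The part of these measures in the differences was not tested beyond these fits.

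**Figure D3:**
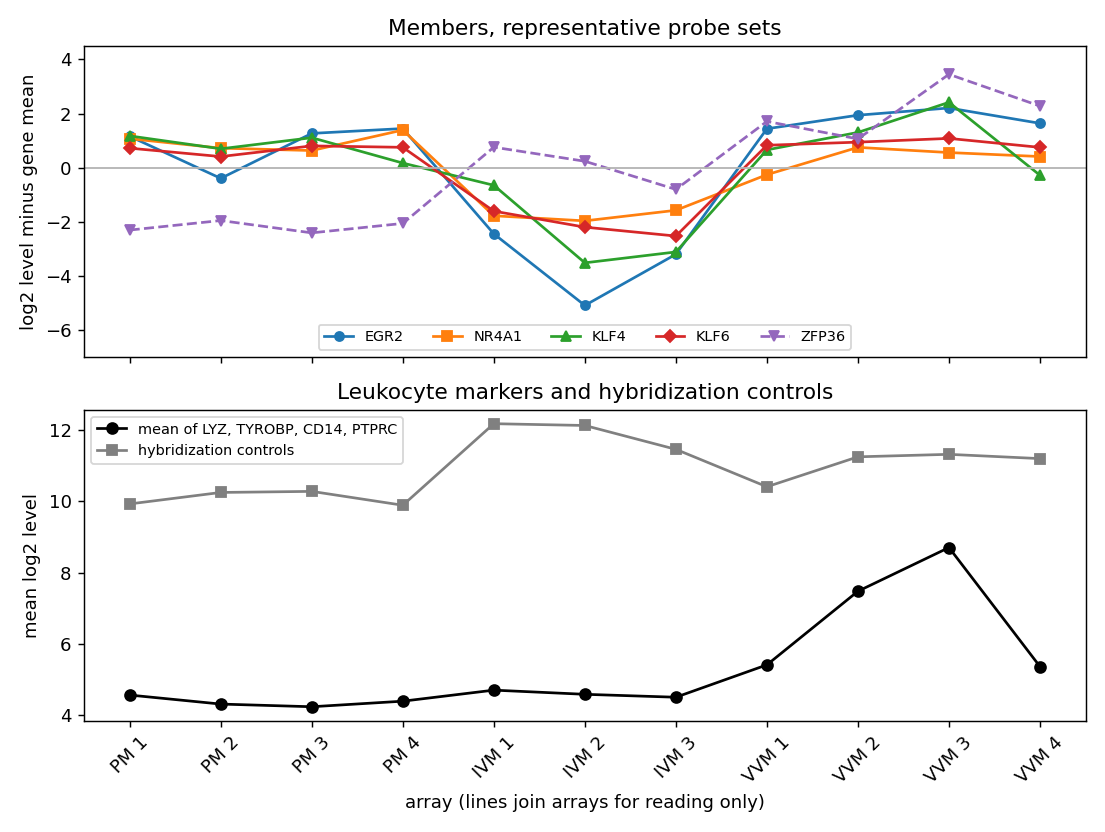
Upper panel, log2 level of the brightest probe set of each gene minus its mean over the 11 arrays. Lower panel, mean log2 level of the 4 leukocyte markers (4.24 to 8.70) and of the hybridization controls in the same arrays, where VVM 2 and VVM 3 stand above the rest for the leukocyte markers and the 3 IVM arrays stand highest for the controls.

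The wider immediate early response was described from a list of 50 other such genes, and 35 of them had a symbol in the annotation. EGR1, EGR3, NR4A3, FOSB and JUN were among the 15 not analysed here. Across this and the lists that follow, the rule for named genes gave 18 called genes for IVM minus VVM, 25 for IVM minus PM and 25 for VVM minus PM. In that order, 12, 25 and 17 of these calls were lost with the hybridization controls in the fit, 0, 10 and 9 with the 3 prime to 5 prime level, and 10, 1 and 12 with the leukocyte markers. Losses named beside a gene are not a full list for these 3 covariates. In IVM against VVM, 12 of the 35 fell (34.3%) and none rose by limma at an adjusted p under 0.05, where 7.63% of all 14132 genes fell and 9.06% rose. At an unadjusted p under 0.05, 23 of the 35 passed in either direction. The median difference of the list was -1.10, beside 0.08 over all genes.

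The 3 of the 12 with the lowest differences were a regulator of NF-kappa B, a pseudokinase and a stress gene. NFKBIZ, an atypical inhibitor of NF-kappa B, differed by -3.34 ± 0.74 (adjusted p = 0.015), TRIB1, which steers protein degradation, by -3.26 ± 0.58 (adjusted p = 0.00479) and GADD45A, induced by DNA damage, by -3.04 ± 0.63 (adjusted p = 0.0104). In the order given, 1 of 2, 1 of 2 and 3 of 3 probe sets passed. The NFKBIZ call was lost without IVM 2, and all 3 calls were lost with PM 1, VVM 2 and VVM 3 left out or with the leukocyte markers in the fit. KLF5, with a difference of -3.26 ± 1.05, did not pass (adjusted p = 0.0693), although 1 of its 2 probe sets did. Its PM arrays ran from 4.92 to 9.90, and its 3 IVM arrays, 4.12 to 5.06, lay below its VVM arrays, 6.98 to 8.70.

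The 12 calls became 7 without IVM 2, 5 without PM 1, VVM 2 and VVM 3, and 3 with the leukocyte markers in the fit. NR4A2, KLF2 and MAFF, a small MAF factor, passed in all 3 of these fits, and these 3 were singled out after their values were seen. MAFF read 11.71, 11.97, 11.66 and 11.51 in PM, 9.43, 9.25 and 8.99 in IVM, and 11.33, 11.51, 11.17 and 10.53 in VVM. Its IVM minus VVM difference was -1.91 ± 0.22 (adjusted p = 0.000515).

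In IVM against PM, 16 of the 35 fell (45.7%) and 3 rose (8.57%), where 20.9% of all genes fell and 25.0% rose (45.9% in either direction). With each array centred on its median, 3406 of all genes fell and 2078 rose in place of 2953 and 3539. The median of the list was -0.94, beside 0.12 over all genes. NFKBIZ fell by 3.41 ± 0.74 (adjusted p = 0.0045) and CCN2, a matricellular protein, by 3.21 ± 0.54 (adjusted p = 0.000991). FOS, an AP-1 subunit, fell by 2.07 ± 0.57 (adjusted p = 0.0147), a call lost without IVM 2, and its IVM minus VVM difference of -1.59 ± 0.57 did not pass. GADD45B rose by 3.33 ± 0.66 (adjusted p = 0.00268), from a mean and SD of 7.12 ± 0.71 over the 4 PM arrays to 10.45 ± 1.10 over the 3 IVM arrays. None of the 19 calls was left with the hybridization controls in the fit, which left 2 calls among all genes.

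In VVM against PM, 5 of the 35 rose (14.3%) and 8 fell (22.9%), where 18.0% of all genes rose and 21.8% fell (39.8% in either direction). With each array centred, 1708 of all genes rose and 3530 fell in place of 2548 and 3074. The median was -0.07, beside 0.04 over all genes, and the 2 shares are near those of all genes. GADD45B rose by 4.08 ± 0.61 (adjusted p = 0.00056, 3 of 3 probe sets), TRIB1 by 3.14 ± 0.53 (adjusted p = 0.00121, 2 of 2) and GADD45A by 2.51 ± 0.58 (adjusted p = 0.00741, 1 of 3). All 3 calls were lost with the leukocyte markers in the fit, and that of GADD45A also with PM 1, VVM 2 and VVM 3 left out. The comparisons with PM share the PM arrays, and those with IVM share the IVM arrays.

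Of the 35 genes, 9 had every IVM array below every PM and every VVM array (25.7%), beside 5.97% of all genes. They were EGR4, NR4A2, KLF2, IER2, CSRNP1, PER1, MAFF, NFKBIZ and SIK1. EGR4 lay below the array medians in IVM, and IVM 2 at 5.138 was barely under VVM 4 at 5.147. For KLF2, IVM 3 at 7.766 was barely under PM 2 at 7.786. The lowest group of these 9 is that of EGR2, NR4A1, KLF4 and KLF6. By mean, PM was the highest group in all of the 9 but KLF2, as for NR4A1. VVM was the highest for KLF2, as for EGR2, KLF4 and KLF6. The VVM minus PM difference passed for NR4A2, KLF2, MAFF and SIK1 and not for the rest of the 9. It was -0.10 ± 0.29 for CSRNP1 and -0.07 ± 0.69 for NFKBIZ, so PM and VVM were hardly apart there. Some of these 9 were singled out after their values were seen. IER2 read 12.97, 12.02, 12.37 and 12.97 in PM, 10.78, 10.05 and 9.98 in IVM, and 11.60, 12.05, 12.55 and 11.63 in VVM. DUSP1, a phosphatase that switches off MAP kinases, lay between 12.05 and 13.25 on all 11 arrays and was named after its values were seen.

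**Figure D4:**
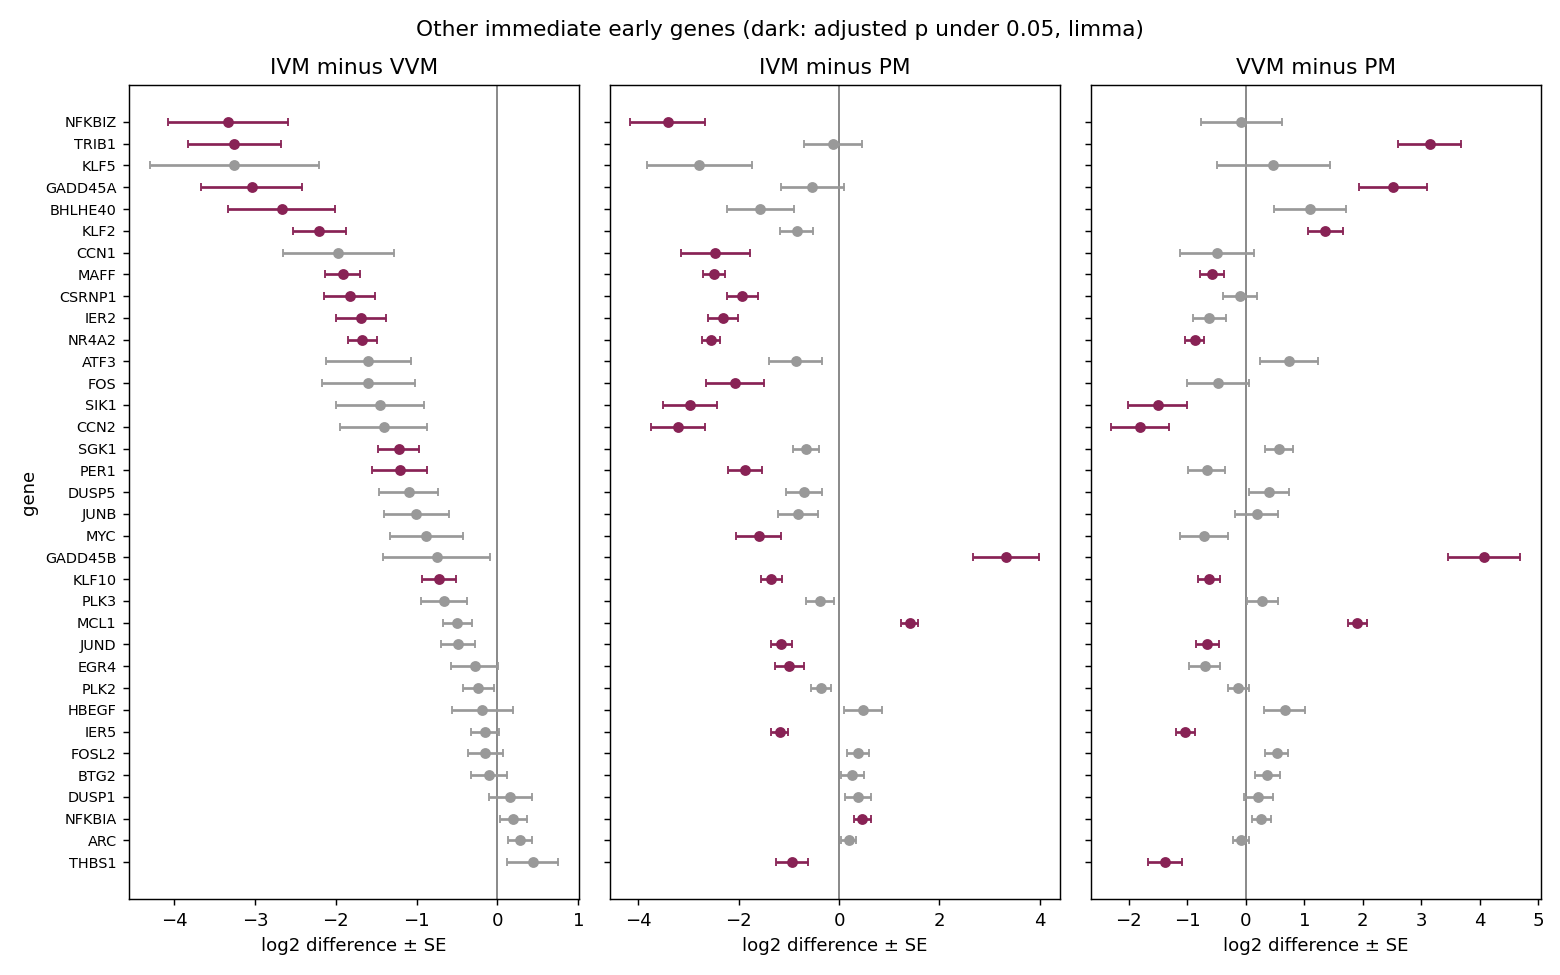
Log2 difference with its standard error for the 35 other immediate early genes in the 3 comparisons, dark where the adjusted p of limma is under 0.05. For IVM minus VVM 12 genes are dark, all to the left of 0, for IVM minus PM 16 are dark to the left and 3 to the right, and for VVM minus PM 8 to the left and 5 to the right.

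The nearest relatives of the 5 genes were described next. NR4A2 (Nurr1), which binds the same DNA element as NR4A1, read 11.66, 11.24, 10.98 and 11.33 in PM, 8.68, 8.64 and 8.95 in IVM, and 10.79, 10.29, 10.29 and 10.34 in VVM. The 3 groups did not overlap, and all 3 differences passed: -1.67 ± 0.18 for IVM minus VVM (adjusted p = 0.000414), -2.54 ± 0.18 for IVM minus PM (adjusted p = 8e-06) and -0.87 ± 0.17 for VVM minus PM (adjusted p = 0.00235). The last was lost with PM 1, VVM 2 and VVM 3 left out and with the leukocyte markers or hybridization controls in the fit. All 5 probe sets of NR4A2 passed in the first 2 comparisons, and 1 of 5 in the third.

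EGR4 was dimmer, with a mean and SD of 6.03 ± 0.67 over the 4 PM arrays, 5.04 ± 0.13 over the 3 IVM arrays and 5.32 ± 0.16 over the 4 VVM arrays. Its IVM minus PM difference of -0.99 ± 0.29 passed (adjusted p = 0.0191) but was lost without IVM 3, and -0.28 ± 0.29 for IVM minus VVM did not pass. NAB1, a corepressor that EGR factors bind, differed by -0.50 ± 0.25 for IVM minus VVM, which did not pass, and rose by 0.78 ± 0.23 for VVM minus PM (adjusted p = 0.0261). That call was lost without any 1 of 5 arrays: PM 3, PM 4, VVM 1, VVM 3 or VVM 4.

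The other Krüppel-like and SP factors, which share the C-terminal zinc fingers of KLF4 and KLF6, were measured for 18 of 20 genes. In IVM against VVM 8 fell (44.4%) and none rose, with a median of -0.76, where 7.63% of all genes fell and 9.06% rose. KLF2, the endothelial and lymphoid Krüppel-like factor, read 7.83, 7.79, 8.77 and 7.93 in PM, 7.21, 6.73 and 7.77 in IVM, and 8.75, 9.38, 9.92 and 9.70 in VVM. It fell by 2.20 ± 0.33 for IVM minus VVM (adjusted p = 0.00214, 1 of 2 probe sets). KLF11, a TGF-beta induced repressor, fell by 2.10 ± 0.26 (adjusted p = 0.000843, 1 of 4 probe sets) and KLF7 by 1.86 ± 0.38 (adjusted p = 0.0101), the latter lost without IVM 2 and with the leukocyte markers or hybridization controls in the fit.

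Against PM, the Krüppel-like and SP factors split. In IVM 7 fell (38.9%) and 3 rose (16.7%), and in VVM 3 fell (16.7%) and 5 rose (27.8%), with medians of -0.64 and 0.08. Of all genes 20.9% fell and 25.0% rose in IVM, and 21.8% fell and 18.0% rose in VVM. KLF11 dropped from a mean and SD of 10.38 ± 0.20 over the 4 PM arrays to 6.23 ± 0.55 over the 3 IVM arrays and 8.33 ± 0.39 over the 4 VVM arrays, and all 4 of its probe sets fell in both (adjusted p = 5.62e-06 and 0.000125). SP2 fell by 2.56 ± 0.21 in IVM (adjusted p = 1.77e-05). KLF7 rose by 2.56 ± 0.35 in VVM (adjusted p = 0.00032), and KLF12 by 1.42 ± 0.39 (adjusted p = 0.0188), a call lost without PM 3, with PM 1, VVM 2 and VVM 3 left out and with any 1 of the 3 covariates.

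Relatives of ZFP36 that also bind AU-rich elements had other courses than ZFP36. ZFP36L2 read 12.15, 10.89, 12.07 and 12.30 in PM, 9.15, 9.31 and 9.53 in IVM, and 9.26, 11.50, 10.09 and 8.64 in VVM. It fell by 2.52 ± 0.56 in IVM against PM (adjusted p = 0.00488) and by 1.98 ± 0.52 in VVM against PM (adjusted p = 0.0138), and the IVM minus VVM difference of -0.54 ± 0.56 did not pass. Both calls were lost with the 3 prime to 5 prime level or the hybridization controls in the fit. ZFP36L1 had a mean and SD of 7.73 ± 0.04 over the 4 PM arrays, 8.12 ± 0.10 over the 3 IVM arrays and 8.25 ± 0.20 over the 4 VVM arrays. It rose by 0.51 ± 0.11 in VVM against PM (adjusted p = 0.00524), lost with PM 1, VVM 2 and VVM 3 left out and with any 1 of the 3 covariates. Its IVM minus VVM difference of -0.13 ± 0.12 did not pass, although 2 of its 4 probe sets did, as lower. ZFP36L1 also rose by 0.38 ± 0.12 in IVM against PM (adjusted p = 0.0264), which was lost without any 1 of PM 1, PM 3, IVM 1 or IVM 2 and with each array centred on its median.

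The deadenylation, decapping and exosome machinery that ZFP36 recruits, with its 2 relatives and the kinase MAPKAPK2, was measured for 32 of 38 genes. In IVM against VVM 6 rose (18.8%) and 3 fell (9.38%), with a median of 0.02, where 9.06% of all genes rose and 7.63% fell. The exosome subunits EXOSC2 and EXOSC5 rose by 1.33 ± 0.18 (adjusted p = 0.00123, 1 of 3 probe sets) and 1.25 ± 0.26 (adjusted p = 0.00993), and the decapping activator PATL1 fell by 1.33 ± 0.28 (adjusted p = 0.0107, 2 of 4 probe sets). The PATL1 call was lost with PM 1, VVM 2 and VVM 3 left out and with the leukocyte markers or hybridization controls in the fit. The EXOSC5 call was lost with the hybridization controls. Against PM, 15 fell and 6 rose in IVM (46.9% and 18.8%) and 17 fell and 4 rose in VVM (53.1% and 12.5%). The shares of all genes were 20.9% and 25.0% in IVM, and 21.8% and 18.0% in VVM. The deadenylase PARN fell by 1.95 ± 0.24 in IVM (adjusted p = 0.000138), and EXOSC8 by 1.84 ± 0.20 in VVM (adjusted p = 6.81e-05).

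Other proteins that bind the 3 prime ends of mRNAs were measured for 11 of 14 genes. In IVM against VVM 2 fell (18.2%) and none rose, where 7.63% of all genes fell and 9.06% rose. PUM2, a Pumilio repressor, fell by 0.93 ± 0.16 (adjusted p = 0.00415), and AUH by 1.22 ± 0.28 (adjusted p = 0.0164), the latter lost without IVM 2, with PM 1, VVM 2 and VVM 3 left out and with the leukocyte markers or hybridization controls in the fit. Against PM, 3 fell (27.3%) and none rose in IVM, where 20.9% of all genes fell and 25.0% rose. In VVM 2 fell (18.2%) and 1 rose (9.09%), where 21.8% of all genes fell and 18.0% rose. ELAVL1 (HuR), which stabilises AU-rich mRNAs, rose by 0.96 ± 0.22 in VVM (adjusted p = 0.00764), a call lost with any 1 of the 3 covariates, and KHSRP, which promotes their decay, fell by 1.47 ± 0.14 (adjusted p = 3.33e-05).

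AU-rich transcripts known as ZFP36 targets, mostly in human and mouse immune cells, were measured for 15 of 20 genes. By limma none passed in IVM against VVM (4 at an unadjusted p under 0.05), where 16.7% of all genes did, and the median was -0.56. In VVM against PM 8 rose (53.3%) and 1 fell (6.67%), and in IVM against PM 6 rose (40%) and 3 fell (20.0%). The shares of all genes were 18.0% and 21.8% in VVM, and 25.0% and 20.9% in IVM. CDKN1A, a cyclin-dependent kinase inhibitor, rose by 3.02 ± 0.40 in IVM and by 3.05 ± 0.37 in VVM (adjusted p = 0.000253 and 0.000155). The cytokine gene IL1B read 6.25, 6.28, 6.14 and 6.24 in PM, 9.53, 6.75 and 6.62 in IVM, and 7.29, 11.58, 11.68 and 9.93 in VVM, highest in the 2 arrays with high leukocyte markers.

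IL1B rose by 3.89 ± 0.90 in VVM against PM (adjusted p = 0.00723), and the chemokine gene CCL3 by 3.42 ± 0.98 (adjusted p = 0.022). CCL3 was at 10.60 in VVM 2 and 10.92 in VVM 3, against 5.44 in VVM 1 and 7.16 in VVM 4. Its call was lost without VVM 2 or VVM 3, and both calls were lost with PM 1 left out beside those 2 arrays. Both were also lost with the 3 prime to 5 prime level or the hybridization controls in the fit, and that of IL1B with the leukocyte markers. With the leukocyte markers in the fit the CCL3 difference was -0.12, and without probe sets that can cross-hybridize it was 0.48.

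The factors that switch immediate early genes on were measured for 18 of 21 genes. In IVM against VVM 2 fell (11.1%) and none rose, where 7.63% of all genes fell and 9.06% rose. CREB1, the cyclic AMP responsive factor, fell by 0.82 ± 0.16 (adjusted p = 0.00808) and the coactivator EP300 by 0.81 ± 0.14 (adjusted p = 0.00396). EP300 lost its call with PM 1, VVM 2 and VVM 3 left out and with the leukocyte markers in the fit, and CREB1 with the hybridization controls. Against PM, 10 fell and 3 rose in IVM (55.6% and 16.7%), and 11 fell and 2 rose in VVM (61.1% and 11.1%). The shares of all genes were 20.9% and 25.0% in IVM, and 21.8% and 18.0% in VVM. CREB1 fell by 2.71 ± 0.16 in IVM (adjusted p = 4.46e-06, 1 of 2 probe sets) and by 1.89 ± 0.15 in VVM (adjusted p = 1.36e-05), and MEF2C by 2.27 ± 0.26 in VVM (adjusted p = 0.000109).

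Genes known as NR4A1 targets in adrenal, testis and ovary cells were measured for 6 of 9. HSD3B2, an enzyme of progesterone synthesis whose probes may also read its close relative HSD3B1, read 10.56, 9.96, 11.05 and 11.38 in PM, 13.27, 12.65 and 12.49 in IVM, and 9.58, 11.05, 11.07 and 10.74 in VVM. It was highest in the group where NR4A1 was lowest. Within groups, PM 4 was the highest PM array and VVM 1 the lowest VVM array for both genes, while IVM 3 was lowest for HSD3B2 and highest for NR4A1. HSD3B2 rose by 2.19 ± 0.40 in IVM against VVM (adjusted p = 0.00568) and by 2.07 ± 0.40 against PM (adjusted p = 0.00235). Both calls were lost with the hybridization controls in the fit, which gave 1.34 and 0.28, and the second also with the 3 prime to 5 prime level. STAR, which moves cholesterol into mitochondria, rose from PM by 5.72 ± 0.60 in IVM and by 6.70 ± 0.56 in VVM (adjusted p = 5.94e-05 and 1.79e-05). CYP19A1, the aromatase, was higher by 1.91 ± 0.41 in IVM than in VVM (adjusted p = 0.0122), a call lost with the leukocyte markers or the hybridization controls in the fit. It also fell in VVM against PM, a call kept in all 23 alternative settings, with differences from -2.83 to -1.66. In IVM against VVM 2 of the 6 rose (33.3%) and none fell, where 9.06% of all genes rose and 7.63% fell. In IVM against PM 5 rose (83.3%) and none fell, beside 25.0% and 20.9% of all genes. In VVM against PM 3 rose (50%) and 1 fell (16.7%), beside 18.0% and 21.8% of all genes.

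Heat shock genes, which rise with handling stress, were measured for 6 of 11. The cochaperone DNAJB1 fell by 1.30 ± 0.26 in IVM against VVM (adjusted p = 0.00871) and by 1.40 ± 0.26 against PM (adjusted p = 0.00182), and the other 5 did not pass between IVM and VVM. The DNAJB1 call between IVM and VVM was lost with PM 1, VVM 2 and VVM 3 left out and with the leukocyte markers or hybridization controls in the fit. HSPH1 fell by 1.23 ± 0.30 in VVM against PM (adjusted p = 0.0106).

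**Figure D5:**
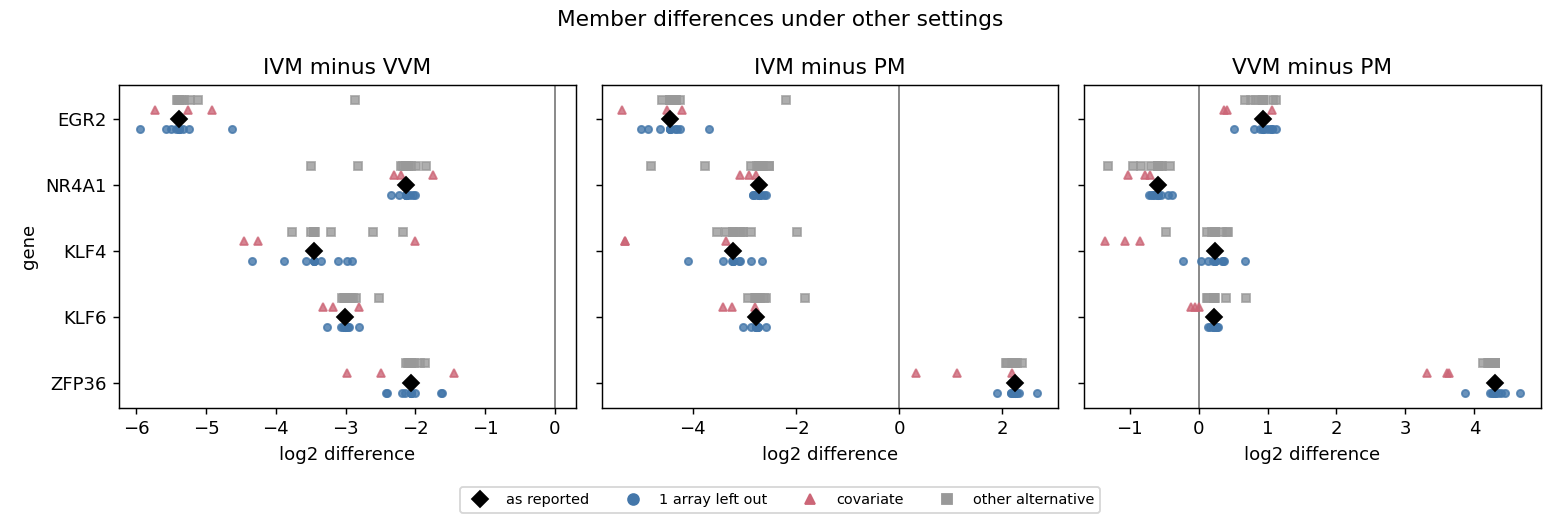
Log2 differences of the 5 genes as reported (black) and under alternatives: 1 array left out, a covariate in the fit, or another normalization, probe set or set of arrays. All IVM minus VVM values lie below 0, from -5.95 to -1.45, and the IVM minus PM value of ZFP36 runs down to 0.33 with the hybridization controls as a covariate.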

How the data were processed

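The deposited values are intensity on a linear scale, made by the authors with RMA in Affymetrix Expression Console, per the submitters' processing notes, which give no versions or settings. RMA corrects background and is meant to bring arrays to 1 distribution, so a shift common to all genes can be lost. The deposited medians still differed by group, with every PM median (5.34 to 5.36) below those of IVM (5.45 to 5.53) and VVM (5.43 to 5.49). Per the labels' protocols, each labelling began with 50 ng of total RNA and went through repeated amplification, which shortens transcripts. The log2 was taken here without a pseudocount, and 99 control probe sets were left out of 52865. Symbols came from the array annotation, updated by gene identifier for 24616 of 24956 probe sets with 1 symbol; 361 carried several and 27449 none. The brightest probe set represented each gene.

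Groups were compared with limma 3.58.1 in R 4.3.3, in 1 model of 3 group means where 8 degrees of freedom were residual and 3.302 came from the prior. Tests are two-sided, with p-values adjusted by Benjamini-Hochberg over 52766 probe sets per comparison; a gene is called under 0.05. The number of arrays limits the precision. Genes named are all members, the 4 list members with the largest IVM minus VVM difference and the 3 largest in each other comparison, family relatives, and the 3 nearest profiles; others are said to be so. Members and lists were chosen with earlier results of these data known. Replicate numbers were not treated as pairs, since the labels name no animal. Residuals of equal numbers correlated between -0.107 and 0.101, which cannot settle whether those samples shared an animal. Alternatives changed normalization, filters, prior, weights, covariates, threshold, probe set and arrays. Sequences and genome positions were not used here.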

Additional observations from a re-analysis of the deposited data

Results flagged for a closer look

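Some named values stood apart from the other 3 arrays of their group, by a gap too large for the group's range. Of 130 groups examined 10 were so, and chance alone gives about 1 in 20. In PM 2, EGR2 was low at 9.073, the fourth brightest KLF6 probe set at 9.717, ZFP36L2 at 10.89 and HNRNPD at 10.82. In VVM 1, NR4A2 was high at 10.79 and CCN2 low at 8.446. In VVM 4, DNAJB1 was low at 10.82, CREM low at 8.449 and EXOSC5 low at 6.228. In PM 3, KLF2 was high at 8.767.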

How the results depend on the processing

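All IVM minus VVM differences of the 5 genes kept their sign in the 24 settings run for each. Leaving out 1 array at a time gave 1423 to 2268 genes called for IVM minus VVM, the lowest without IVM 2, and 7 to 13 other immediate early genes. The labels do not say whether equal replicate numbers share more than a number. With the replicate block, 13 other immediate early genes were called for IVM minus VVM, 10 of them among the 12. In the 3 comparisons 1941, 5608 and 5155 genes were then called. For IVM minus VVM, IVM minus PM and VVM minus PM, in this order, a 2-fold minimum left 1128, 2528 and 2401 genes. The hybridization control covariate left 329, 2 and 1577 genes and 5, 0 and 5 other immediate early genes. It gave KLF6 -3.32, -3.42 and -0.10, ZFP36 -2.98, 0.33 and 3.31, NR4A1 -3.09 and KLF4 -5.31 for IVM minus PM, and KLF4 -0.86 for VVM minus PM. The leukocyte covariate left 1215 genes and 3 other immediate early genes for IVM minus VVM and 2461 and 6 for VVM minus PM, with NR4A1 at -1.74 and -1.02 and KLF4 at -2.00 and -1.36. Leaving out PM 1, VVM 2 and VVM 3 left 1393 genes and 5 other immediate early genes for IVM minus VVM and 3025 genes for VVM minus PM. The 3 prime to 5 prime covariate left 2202 genes for IVM minus PM, and 3190 genes and 8 other immediate early genes for VVM minus PM. It gave EGR2 -5.37, KLF4 -5.32, KLF6 -3.24 and ZFP36 1.11 for IVM minus PM, and KLF4 -1.07 and KLF6 -0.054 for VVM minus PM. Without probe sets that can cross-hybridize, NR4A1 was at -3.50, -4.81 and -1.31. Means of all probe sets gave NR4A1 -2.82, -3.77 and -0.95 and KLF6 -2.52, -1.83 and 0.68, and for IVM minus VVM and IVM minus PM EGR2 -2.87 and -2.20 and KLF4 -2.17 and -1.98. Signs turned for CCL3 in IVM minus VVM (0.19 without cross-hybridizing sets). With the hybridization controls they turned for BAG3 (-0.14), DNAJA1 (0.24) and HNRNPD (0.35) in IVM minus PM and RC3H2 (-0.027) in VVM minus PM. With the leukocyte covariate they turned for MYC (0.23), ZFP36L1 (0.042) and ZFP36L2 (0.56) in IVM minus VVM and CCL3 (-0.12) in VVM minus PM. Without PM 1, VVM 2 and VVM 3 they turned for ZFP36L1 (0.0059) and ZFP36L2 (0.38) in IVM minus VVM. The cause was not tested. A covariate takes 1 residual degree of freedom and, where it follows the groups, widens the errors. Values near the array medians limit what the dim probe sets can show.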

Other observations

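Markers of other cell types that follicle samples can hold were also measured. Of 5 theca and stroma markers, 4 rose in IVM against PM (80%), as did 25.0% of all genes. The log2 of the summed level of these markers ranged from 7.77 to 8.18 in PM, from 8.60 to 9.78 in IVM and from 8.52 to 10.42 in VVM. Of 8 endothelial markers, 3 rose in VVM against PM (37.5%), as did 18.0% of all genes. Their summed levels ran from 8.45 to 8.57 in PM and from 8.72 to 10.22 in VVM. Of 4 erythrocyte markers, 1 fell in IVM against VVM (25%) and 1 in IVM against PM (25%), beside 7.63% and 20.9% of all genes. Beside 11.1% of all genes, 3 of the 4 erythrocyte markers had every IVM array below every VVM array. Their summed level ranged from 8.13 to 8.55 in IVM, below the 8.94 to 10.49 of PM and the 9.20 to 11.04 of VVM, which is the order of IVM against the others that EGR2, NR4A1, KLF4 and KLF6 had. Of 10 oocyte markers none passed in VVM against PM by limma, where 39.8% of all genes did, and none at an unadjusted p under 0.05. In IVM 1 of the 10 rose against VVM and 1 against PM (10% each), beside 9.06% and 25.0% of all genes. Group means under 6 were found for 7 of the 10 oocyte markers and 3 of the 5 theca and stroma markers in each group. The same held for 7 of the 8 endothelial markers in PM and 3 in VVM, so dim markers limit these counts. The part of these cell types in the levels of the 5 genes was not tested.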
